A study of Mus musculus with 4 samples.

Results

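CD8 T cells that carried RNA of the Ly49 receptors Klra1, Klra6 or Klra7 were examined in leukocytes of mouse pancreatic tumors. A cell was a Ly49 CD8 T cell when it held at least 1 unique molecular identifier (UMI, a counted RNA molecule) of Cd3e, Cd3d and Cd3g summed, at least 1 UMI of Cd8a and Cd8b1 summed and no Cd4 UMI. It was then selected on 3 further measurements: at least 2 UMIs of Klra1, Klra6 and Klra7 summed, fewer than 5 UMIs of the granzymes Gzmc, Gzmd, Gzme and Gzmf summed, and a UMI in fewer than 2 of the inhibitory receptor genes Lag3, Pdcd1 and Havcr2. This gave 115 cells of 3655 CD8 T cells and of 23011 cells that passed the quality limits (between 300 and 5000 genes detected, with mitochondrial UMIs at 6% or less).

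The cells came from C57BL/6 male mice, whose age is not in the labels, bearing subcutaneous tumors of KPC cells, a single pancreatic cancer line of mouse. Mice in the untreated group received no agonist. The other groups received the STING agonist ADU-S100, a cyclic dinucleotide injected once into the tumor, the agonistic anti-LTβR antibody 4H8 given repeatedly into the peritoneum, or both agents as combination therapy. Live CD45+ leukocytes were sorted from resected tumors that were pooled within each group, and 1 droplet library was made per group from the 5′ ends of transcripts. These 4 libraries therefore held no replicates of any treatment, no value per animal and no test between treatments, and the intervals below cover counting error only. The study describes a further independent single-cell experiment, which was not analysed here.

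The receptors of the Ly49 family (Klra genes) are lectin-like proteins on natural killer (NK) cells and on a minor fraction of CD8 T cells. Most of them bind major histocompatibility complex (MHC) class I and inhibit the cell, whereas a few pair with the adaptor Tyrobp and activate it. Ly49-bearing CD8 T cells of mice are known for memory-like traits, for dependence on interleukin-15 received through Il2rb, and for a subset with regulatory activity that contains the transcription factor Helios (Ikzf2).

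Klra6 (Ly49F), Klra7 (Ly49G) and Klra1 (Ly49A) encode inhibitory members of the family and lie on the minus strand of chromosome 6 in GRCm38, at chr6:130013033-130026954, chr6:130218605-130233322 and chr6:130363917-130386874. The RefSeq sequence of the 250 bases before their starts (GRCm38.p6) is shown because these 3 genes define the cells. Capitals mark CTTTGAT, a core sequence bound by the factors TCF-1 (Tcf7) and LEF-1 (Lef1), which was searched on both strands. The windows are chr6:130026955-130027204 for Klra6, chr6:130233323-130233572 for Klra7 and chr6:130386875-130387124 for Klra1, each written 5′ to 3′ on the minus strand.
Klra6: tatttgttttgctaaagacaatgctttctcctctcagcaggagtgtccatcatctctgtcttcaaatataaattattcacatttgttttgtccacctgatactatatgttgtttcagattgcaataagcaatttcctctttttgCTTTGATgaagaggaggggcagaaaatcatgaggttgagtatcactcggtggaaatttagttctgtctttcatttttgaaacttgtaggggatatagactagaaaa
Klra7: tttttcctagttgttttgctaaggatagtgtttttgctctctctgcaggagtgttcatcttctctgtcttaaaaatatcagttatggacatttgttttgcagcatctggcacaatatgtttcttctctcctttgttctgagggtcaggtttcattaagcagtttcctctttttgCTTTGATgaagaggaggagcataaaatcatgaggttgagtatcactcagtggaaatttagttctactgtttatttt
Klra1: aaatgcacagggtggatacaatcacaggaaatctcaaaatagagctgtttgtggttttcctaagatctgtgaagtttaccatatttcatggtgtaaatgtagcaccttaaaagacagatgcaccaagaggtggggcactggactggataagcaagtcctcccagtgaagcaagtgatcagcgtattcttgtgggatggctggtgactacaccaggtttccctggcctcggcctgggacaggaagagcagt
The motif began 106 bases before the start of Klra6 and 76 bases before that of Klra7. It was not found in the Klra1 window or in the window of another Klra7 start (chr6:130231688-130231937). Among all RefSeq windows of the same length 1053 of 32851 (3.21%) contained it, and 2 of 13 windows of 11 Ly49 genes did. The Klra6 and Klra7 windows shown were identical at 187 of 220 aligned bases (85%), and the longest run they shared was 30 bases, whereas Klra6 and Klra1 were identical at 130 of 208 (62.5%). These matches describe the letters in the windows and were not linked to binding of any factor. None of the 90-base windows in the first 500 bases of the Klra1, Klra6 or Klra7 transcripts occurred in another Ly49 gene. Of the windows at the start of the pseudogene Klra13-ps, however, 33 of 982 (3.36%) occurred in Klra7 transcripts beyond their first 500 bases. In Klra8, 38.4% of the first windows were shared with the pseudogene Klra14-ps.

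Among the 115 Ly49 CD8 T cells, Klra7 was detected in 97, Klra6 in 64 and Klra1 in 43. Klra7 was the only one of the 3 receptors in 37 cells, Klra6 in 9 and Klra1 in 3. Klra6 and Klra7 occurred together without Klra1 in 26 cells, Klra1 and Klra7 in 11, Klra1 and Klra6 in 6, and all 3 receptors in 23. A cell thus commonly carried RNA of more than 1 receptor, although a receptor with no UMI may have been missed at this depth. The cells held between 2 and 25 UMIs of the 3 genes with a median of 5, and the library medians were 6 (untreated), 6 (STING agonist), 5 (LTβR agonist) and 4 (combination). Summed over cells and scaled to the total UMIs of the group (CPM, counts per 1000000), Klra7 stood at 578, 586, 492 and 420 CPM in these libraries in the same order. Klra6 stood at 208, 199, 141 and 177 CPM and Klra1 at 139, 138, 114 and 124 CPM. These levels follow from the selection.

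At the limits of the selection, 15 cells held exactly 2 UMIs of the 3 receptors and 21 held 3, whereas 38 otherwise eligible cells held 1 UMI and 870 held none. Of the selected cells 113 had no UMI of granzymes C to F, and 90 had none of Lag3, Pdcd1 and Havcr2 and 25 had 1 of them. Outside these limits were 1 Ly49-positive cell with 5 or more granzyme UMIs, 17 with 2 of the inhibitory receptors and 14 with all 3.

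At least 2 UMIs of Klra1, Klra6 and Klra7 were found in 437 of 1132 NK-like cells (38.6%), defined by no CD3 UMI and at least 2 UMIs of Ncr1 and Klrb1c summed. They were found in 14 of 1708 CD4 T cells (0.82%), 2 of 671 B cells (0.298%) and 5 of 3530 macrophages (0.142%), where free RNA would also be counted. Among CD8 T cells with 2 or 3 of the inhibitory receptors the share was 31 of 2391 (1.3%), and among those with at least 5 granzyme C to F UMIs it was 4 of 241 (1.66%). Inside both limits it was 115 of 1023 (11.2%).

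The Ly49 CD8 T cells had a median of 6945 UMIs per cell, between 6243.5 and 8307.5 by library. The 870 CD8 T cells inside the same limits that lacked all 3 receptors, called Ly49-lacking below, had a median of 4219.5. The requirement of 2 receptor UMIs favors deeper cells, so that shares of cells are also given after each cell was thinned to 2000 UMIs. Of the 23011 filtered cells 492 carried a barcode that also occurred in another library, as did 3 of the 115 Ly49 CD8 T cells. In addition, 5 barcodes outside the quality limits met the rest of the selection. A Scrublet doublet score of at least 0.2 was found in 2 of the 115 cells and in 46 of the 870 Ly49-lacking cells.

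The label of T cell was checked first against T cell receptor RNA, which the selection did not use. A UMI of a Trbv segment was present in 105 of 115 Ly49 CD8 T cells (91.3%, 95% interval 84.6 to 95.8), against 12 of 1132 NK-like cells (1.06%). The share was 90.5% in untreated, 95.5% in STING agonist, 90.9% in LTβR agonist and 89.3% in combination tumors. In Ly49-lacking cells, which were shallower, it was 71.3%. The 105 cells used 21 Trbv segments, most often Trbv12-2 (16 cells), Trbv13-2 (13), Trbv16 (13), Trbv3 (11) and Trbv13-1 (10). A Trav segment was seen in 69 cells, which used 42 segments with Trav12-2 (8 cells), Trav3-3 (6), Trav10 (5), Trav13-1 (5) and Trav4-3 (4) ahead. No Trbv or Trav segment was found in more than 16 cells, and the Trbv segments were spread over 12 to 18 kinds in each library.

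Markers of NK cells were present at lower levels than in NK-like cells. Ncr1 and Klrb1c define the NK-like cells here, and the others do not. Ncr1, the NK receptor NKp46, was at 11.6, 5.53, 0 and 0 CPM in Ly49 CD8 T cells against 312 to 426 CPM in NK-like cells. The adaptor Tyrobp was at 295, 66.3, 264 and 282 CPM against 2065 to 2446, and Klrb1c (NK1.1) was at 127, 55.3, 58.6 and 57.3 CPM against 471 to 535. At least 2 of the 5 NK markers Ncr1, Klrb1c, Tyrobp, Fcer1g and Klre1 were nevertheless detected in 69 of 115 Ly49 CD8 T cells and in 143 of 870 Ly49-lacking cells. The summed level of the 5 markers ran from 757 to 1141 CPM in Ly49 and from 807 to 1371 CPM in Ly49-lacking cells, so that the sums overlapped. The sum includes Tyrobp and Fcer1g, which stood at 2312 to 2561 and 2855 to 4043 CPM in macrophages. Single markers went both ways. Klrb1c was higher at 55.3 to 127 against 5.28 to 14.3 CPM and Klre1 at 119 to 202 against 36.6 to 79.4. Tyrobp was lower at 66.3 to 295 against 308 to 623 CPM. Foxp3, which defines regulatory T cells, had no UMI in any of the 115 cells and a UMI in 11 of 870 Ly49-lacking cells. The 95% upper bound of 3.16% limits cells with a Foxp3 UMI, and a cell without a UMI may still contain the RNA. Zbtb16, the factor of innate-like NKT cells, was at 0 CPM in every library.

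Other receptors of the family differed from NK-like cells. Klra8 (Ly49H), an activating receptor, was at 75.1, 0, 35.2 and 0 CPM in the 4 libraries and was seen in 3 of 115 cells, whereas NK-like cells had 372 to 487 CPM. Klra4 (Ly49D), also activating, was at 17.3, 0, 14.7 and 0 CPM against 276 to 427. Klra6 showed the opposite order, at 141 to 208 CPM in Ly49 CD8 T cells and 4.94 to 13.9 CPM in NK-like cells, although Klra6 was among the selecting genes. The inhibitory Klra3 (Ly49C) was at 121, 77.4, 46.9 and 33.4 CPM and within the NK-like range of 58.2 to 118 in 1 of the 4 libraries. In Ly49-lacking cells Klra3 was at 13.4, 0, 8.3 and 3.27 CPM.

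**Figure D1:**
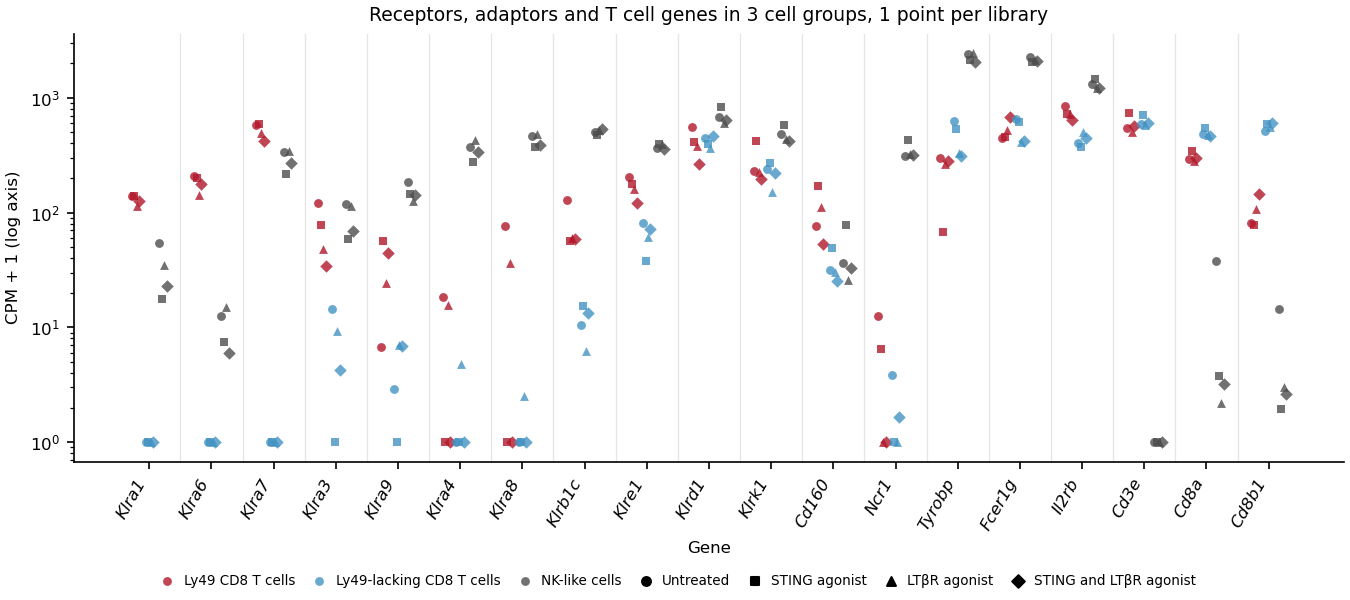
Levels of Ly49 receptors, other NK receptors, adaptors and T cell genes (CPM plus 1, log axis) in Ly49 CD8 T cells (red), Ly49-lacking CD8 T cells (blue) and NK-like cells (gray), with 1 point per library and its shape giving the treatment. Klra4, Klra8, Ncr1 and Tyrobp lie lower in Ly49 CD8 T cells than in NK-like cells in all 4 libraries; Klra1, Klra6 and Klra7 of Ly49-lacking cells and Cd3e of NK-like cells are at 0 by definition.

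The CD8 coreceptor of conventional CD8 T cells is a pair of the chains CD8α (Cd8a) and CD8β (Cd8b1), and some unconventional T cells carry CD8α alone. Cd8b1 was at 80.9, 77.4, 106 and 143 CPM in Ly49 CD8 T cells and at 517 to 600 CPM in Ly49-lacking cells. All 4 values lay below the lowest of the Ly49-lacking cells. A Cd8b1 UMI was present in 45 of 115 Ly49 CD8 T cells (39.1%, 30.2 to 48.7) and in 695 of 870 Ly49-lacking cells (79.9%, 77.1 to 82.5), and the shares were 19.3 and 61.9% after thinning. By library the share in Ly49 CD8 T cells was 38.1, 36.4, 38.6 and 42.9%. Cd8a differed less, at 278 to 343 CPM against 462 to 548. Since either chain satisfied the selection, 70 of the 115 cells entered on Cd8a alone.

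Expression was then compared between Ly49 and Ly49-lacking CD8 T cells within each library, over 3332 genes with a mean of at least 50 CPM. As both groups were chosen by RNA of the same cells, this comparison is a description without a test. A gene was called when the ratio was at least 2-fold in the same direction in all 4 libraries, on log2 of CPM after adding 25 CPM, which understates the ratio of low genes. Higher in Ly49 CD8 T cells were 5 genes (0.15% of those compared) and lower were 24 genes (0.72%). With no limit of size, 343 genes (10.3%) were higher in all 4 libraries and 765 (23%) lower, and the median log2 ratio of all genes was -0.08. Whether library values of the groups overlapped is stated for single genes below. The share of all compared genes without overlap was not counted. A 2-fold call in all 4 libraries leaves little room for overlap, so for called genes its absence adds nothing to the call.

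Ikzf2, the transcription factor Helios, had the highest median ratio among the called genes. It stood at 1242, 1448, 1184 and 731 CPM in Ly49 CD8 T cells of untreated, STING agonist, LTβR agonist and combination tumors, against 234, 132, 287 and 128 CPM in Ly49-lacking cells. The log2 ratios were 2.29, 3.23, 1.95 and 2.30, and the groups did not overlap in level. An Ikzf2 UMI was found in 103 of 115 Ly49 CD8 T cells (89.6%) and in 24% of Ly49-lacking cells, or in 73.7 and 17.6% after thinning, against 0.633% of thinned B cells. CD4 T cells with a Foxp3 UMI, in which Helios is common, had 1465, 1340, 1481 and 1474 CPM of Ikzf2, and NK-like cells had 68 to 101. The 95% intervals of Ikzf2 in Ly49 CD8 T cells were 1082 to 1420, 1278 to 1634, 1071 to 1305 and 619 to 856 CPM. Thus the STING agonist interval contained the level of the Foxp3-positive cells of its library, and the other 3 lay below it.

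Cd7, a surface glycoprotein of T and NK cells, followed at 734, 718, 358 and 454 CPM against 118, 121, 113 and 76.4. Klhdc2, a substrate receptor of a ubiquitin ligase, was at 225, 155, 123 and 172 CPM against 41.2, 25.5, 35.5 and 39.8. Gem, a small GTPase, was at 248, 260, 199 and 215 CPM against 82.3, 43, 81.5 and 64.7. These 3 genes did not overlap between the groups, and Gem was higher still in NK-like cells (323 to 514 CPM). Pde2a, which breaks down cyclic nucleotides, was at 121, 249, 208 and 253 CPM against 41.2, 55.8, 89 and 94.1. NK-like cells carried both markers as well, with Cd7 at 223 to 354 CPM and Pde2a at 126 to 163. In the untreated library Pde2a was lower in Ly49 CD8 T cells than in NK-like cells, at 121 against 134 CPM. Cd7 and Pde2a had been given beforehand as markers of these cells with earlier results of the data known.

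Among genes that reached a median log2 ratio of 1 without being called, Xcl1 had the highest. Xcl1, the chemokine that attracts cross-presenting dendritic cells, stood at 266, 834, 689 and 449 CPM in Ly49 CD8 T cells against 129, 116, 49.8 and 57.5, with log2 ratios of 0.91, 2.60, 3.25 and 2.52. It was detected in 77 of 115 Ly49 CD8 T cells (67%; 47.4% after thinning) and in 11.5% of Ly49-lacking cells (7.33% after thinning). NK-like cells had 686 to 1381 CPM, and 2 of 671 B cells held a UMI. The aryl hydrocarbon receptor Ahr, the NK receptors Klre1 and Cd160 and the memory factor Tcf7 had medians of 1.19, 1.11, 1.09 and 1.05.

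**Figure D2:**
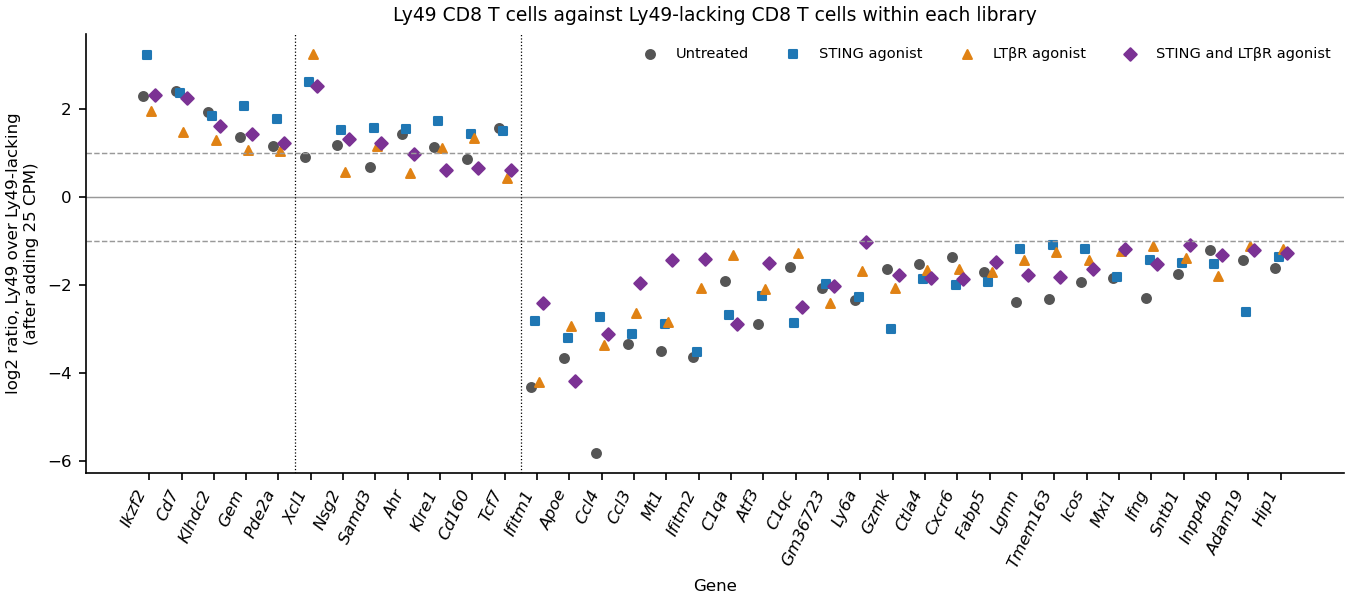
Log2 ratio of Ly49 over Ly49-lacking CD8 T cells within each library, after adding 25 CPM, for the called genes and others named in the text, with 1 point per library. Ikzf2 lies between 1.95 and 3.23 and Ifitm1 between -4.33 and -2.41.

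Genes of memory and homing were mixed. Of 14 compared genes of the list of memory-like and interleukin-15-linked genes none was called, 5 were higher and 4 lower in all 4 libraries at any size (10.3 and 23% of all genes), and the median log2 ratio was -0.04. Il2rb, the interleukin-15 receptor β chain, was at 849, 718, 715 and 635 CPM against 400, 373, 502 and 448, and the 2 sets of values did not overlap. Ly6c2, a surface protein of memory CD8 T cells, was at 2022, 2409, 1925 and 2430 CPM against 1678, 1795, 1572 and 1153. Eomes and Tbx21, T-box factors of memory and effector cells, had log2 ratios of 0.16 to 0.72 and of -0.28 to -0.02. Of 9 genes of naive and homing cells none was called, with a median of 0.10. Tcf7 was at 445, 564, 314 and 458 CPM against 134, 183, 229 and 295, and did not overlap between the groups. Il7r, the interleukin-7 receptor, went the other way, at 127, 105, 255 and 258 CPM against 355, 397, 353 and 428.

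NK receptors outside the Ly49 family did not move as a group. Of 9 compared genes none was called, 3 were higher and 2 lower in every library (10.3 and 23% of all genes), and the median was 0.06. Klre1 was at 202, 177, 158 and 119 CPM against 79.4, 36.6, 60.4 and 70.5, and Cd160 at 75.1, 171, 111 and 52.5 CPM against 30.6, 47.8, 29.4 and 24.2. Klrd1, the CD94 partner of the NKG2 receptors, overlapped between the groups at 263 to 560 CPM against 367 to 462. Neither was any of the 4 adaptor genes called. A UMI of the adaptor Fcer1g was nevertheless found in 67% of Ly49 and 21.5% of Ly49-lacking cells (40.4 and 15.3% after thinning). The level of Fcer1g went both ways, at 445, 453, 522 and 683 CPM against 656, 610, 413 and 423. The log2 ratios were -0.53, -0.41, 0.32 and 0.66. Fcer1g was called higher when cells with 2 or more markers of another class were left out. Tyrobp was lower in every library, with log2 ratios of -2.62 to -0.12. Of 5 compared genes linked to regulatory CD8 T cells, Ikzf2 was called higher and Ctla4 lower (0.15 and 0.72% of all genes), and the median was -0.35. Il10 held 2.93 CPM in the LTβR agonist library and 0 in the other 3. Of 9 genes of exhaustion and activation none was called, with a median of 0.07.

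Effector molecules were among the lower genes. Of 11 compared cytotoxic and chemokine genes 4 were called lower (0.72% of all genes) and none higher, 8 were lower in all 4 libraries (23% of all genes), and the median log2 ratio was -1.47. Ccl4, an inflammatory chemokine, was at 0, 138, 38.1 and 33.4 CPM in Ly49 CD8 T cells against 1387, 1056, 626 and 487 CPM in Ly49-lacking cells. Its relative Ccl3 was at 0, 5.53, 0 and 4.77 CPM against 230, 241, 131 and 91.4. Gzmk, a granzyme of memory-like CD8 T cells, was at 11.6, 0, 0 and 0 CPM against 90, 177, 80.7 and 60.7, and Ifng at 17.3, 11.1, 23.4 and 4.77 CPM against 185, 73.3, 79.2 and 61.4. For these 4 genes every Ly49 value lay below every Ly49-lacking value. Gzmb, the main cytotoxic granzyme, was at 335, 27.6, 141 and 81.2 CPM against 541, 868, 585 and 491 and was not called. In the untreated library 1 cell held 67.2% of its UMIs, and without that cell Gzmb was at 122 CPM. Gzmb was called lower after thinning and from the mean of CPM per cell. It was also called lower without cells bearing NK markers and with the untreated library left out. Ctsw, a cathepsin of cytotoxic cells, was higher in all 4 libraries at 387 to 547 CPM against 263 to 358. Nkg7 and Ccl5 were lower in all 4 libraries without being called, at 1041 to 1225 against 1399 to 1574 CPM and at 1917 to 2802 against 3181 to 5324 CPM.

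Ctla4, Cxcr6 and Icos were also called lower. Ctla4, an inhibitory receptor induced by activation, was at 86.7, 105, 64.5 and 52.5 CPM against 295, 448, 260 and 253. The chemokine receptor Cxcr6 was at 63.6, 49.7, 44 and 33.4 CPM against 203, 274, 190 and 188, and the costimulator Icos at 63.6, 122, 106 and 62.1 CPM against 316, 309, 327 and 248. None of these 3 genes overlapped between the groups. Related genes went both ways, with log2 ratios of -0.94 to 0.29 for the retention molecule Cd69, -0.18 to 0.40 for the integrin Itga1 and -0.75 to 0.58 for the costimulator Tnfrsf9. Of 4 compared genes of tissue residency 1, Cxcr6, was called lower (0.72% of all genes), and 2 were lower in all 4 libraries (23% of all genes). Ctla4 was detected in 11.4% of thinned Ly49 CD8 T cells and in 34.6% of thinned Ly49-lacking cells.

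Of 14 compared interferon-stimulated genes 1, Ly6a, was called lower (0.72% of all genes), and 12 were lower in all 4 libraries against 23% of all genes, with a median log2 ratio of -0.54. Ly6a, the surface protein Sca-1, was at 231, 293, 311 and 396 CPM against 1282, 1528, 1054 and 827. Summed over the 16 genes of the list, Ly49 CD8 T cells had 2820, 2205, 2427 and 2301 CPM and Ly49-lacking cells 5532, 5893, 4746 and 3639. Ifitm1, an interferon-inducible membrane protein outside the list, had the lowest median of all called genes, at 34.7, 71.8, 11.7 and 23.9 CPM against 1176, 664, 661 and 234. Ifitm2 was at 28.9, 5.53, 52.8 and 62.1 CPM against 648, 325, 303 and 208.

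Several other lower genes belong to macrophages. Apoe, C1qa and C1qc were called lower, with Apoe at 0, 5.53, 5.86 and 9.55 CPM against 294, 258, 214 and 602. The 6 macrophage markers C1qa, C1qb, C1qc, Csf1r, Lyz2 and Cd68 summed to 40.4, 38.7, 284 and 544 CPM in Ly49 CD8 T cells and to 760 to 1528 CPM in Ly49-lacking cells. At least 2 of them were detected in 6 of 115 and in 100 of 870 cells. After leaving out cells with 2 or more markers of B cells, macrophages, neutrophils or dendritic cells, 108 Ly49 CD8 T cells and 753 Ly49-lacking cells remained, and 18 of the 24 lower genes were called again, among them Ifitm1, Ifitm2, Ccl3, Ccl4, Mt1, Ly6a, Gzmk, Ctla4, Cxcr6, Icos and Ifng but not Apoe, C1qa and C1qc. Of the 5 higher genes Ikzf2, Cd7 and Klhdc2 were called again, and Fcer1g and Lrmda were called higher in addition. Mt1 (a metallothionein), the stress factor Atf3 and the unnamed gene Gm36723 completed the 10 lowest, with medians of -2.86, -2.17 and -2.04.

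Calls differed between narrower selections of the cells. Without cells that held 2 or more NK markers, 46 Ly49 CD8 T cells remained, and Ikzf2, Pde2a and Klhdc2 were called higher. Among cells with a Cd8b1 UMI, of which 45 were Ly49 CD8 T cells, Ikzf2, Klre1 and Klhdc2 were called. With at least 4 receptor UMIs, or without cells of high Scrublet score, Pde2a was not called and the other 4 higher genes were. After thinning to 2000 UMIs, Ikzf2, Cd7 and Pde2a were called again but not Klhdc2 and Gem, and 13 of the 24 lower genes were called again, without Ccl3, Ifng, Ifitm2, Atf3, C1qa and C1qc among others. Ikzf2 was called in each of these selections. With a single library left out, between 24 and 55 genes were called lower, the highest count coming without the combination library.

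The number of receptor UMIs in a cell was set against other genes across the 4 libraries pooled, including the 38 eligible cells with 1 receptor UMI. Ikzf2 was at 200 CPM in cells with none, 774 in cells with 1, 883 with 2 or 3, 1118 with 4 to 7 and 1408 with 8 or more. Cd7 was at 103, 222, 335, 404 and 868 CPM in the same order. The level of both genes was higher in every further group, but intervals of some neighboring groups overlapped. For Ikzf2 they were 670 to 889 CPM with 1 UMI and 767 to 1011 with 2 or 3. For Cd7 they were 168 to 287 CPM with 1 UMI, 265 to 418 with 2 or 3 and 344 to 472 with 4 to 7. The groups were formed from the receptor UMIs that also chose the cells, so the order is a description. Cd8b1 was at 567 and 261 CPM with 0 and 1 UMI and between 97.3 and 110 CPM in the other groups, and Ccl4 was at 814 and 443 CPM and then between 37.3 and 64.9. Pde2a did not follow this order, at 75.1, 163, 255, 222 and 153 CPM. The 5 groups held 870, 38, 36, 48 and 31 cells, and the part of cell depth in this order was not tested.

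**Figure D3:**
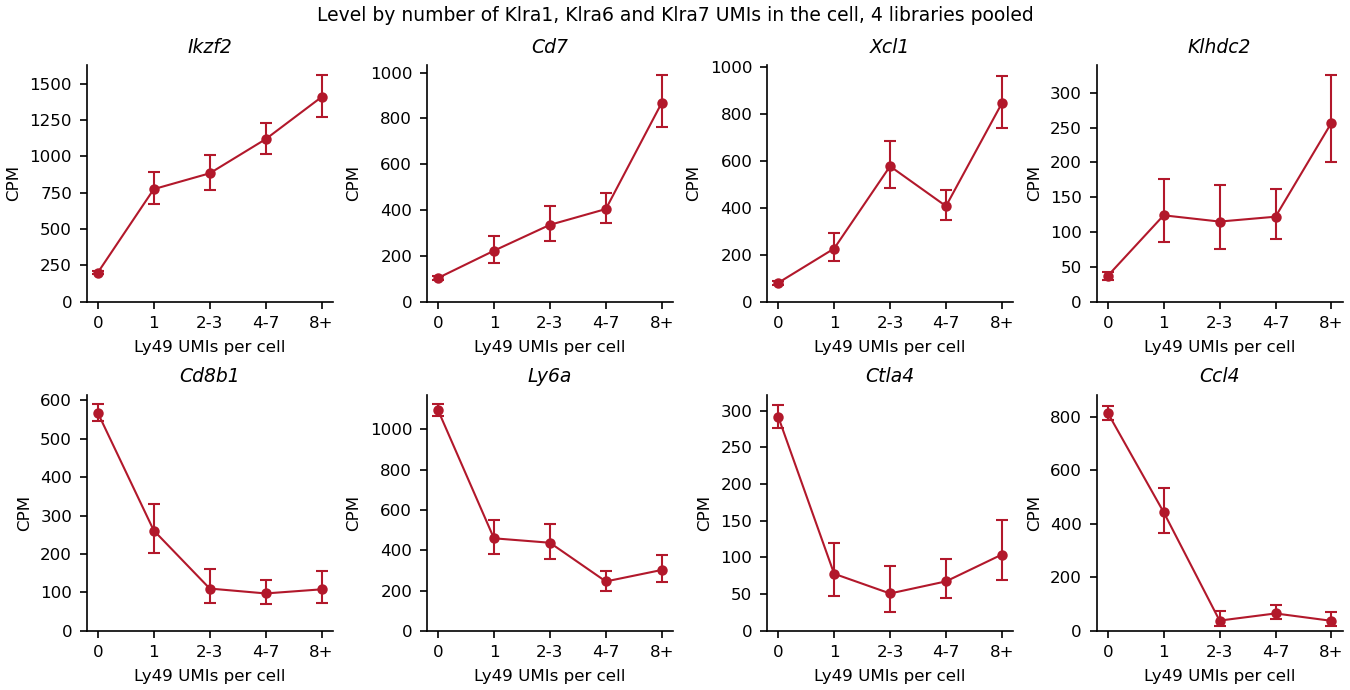
Levels (CPM, with exact Poisson 95% intervals as bars) of 8 genes in CD8 T cells inside the granzyme and inhibitory receptor limits, by the summed number of Klra1, Klra6 and Klra7 UMIs in the cell, 4 libraries pooled. Ikzf2 and Cd7 stand higher in each group with more UMIs, with overlapping bars between some neighboring groups, and Cd8b1 and Ccl4 are lowest in cells with at least 2 UMIs.

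Receptor combinations were compared within the 115 cells. Ikzf2 was at 1353 CPM (1241 to 1473) in the 49 cells with both Klra6 and Klra7 and at 886 CPM (794 to 986) in the 48 cells with Klra7 without Klra6. Cd7 was at 664 CPM (586 to 750) and 341 CPM (285 to 405), and Xcl1 at 756 CPM (672 to 847) and 272 CPM (222 to 330). These intervals did not overlap, whereas those of Pde2a (219 and 209 CPM), Klrb1c (76.3 and 84.7 CPM) and Tcf7 (435 and 386 CPM) did. The cells with both receptors were deeper, with a median of 7778 against 6496.5 UMIs, and cells of 1 library share their source. Other splits of the 115 cells also differed. Ikzf2 was at 1402 CPM without and 810 CPM with a Cd8b1 UMI, and Cd7 at 702 and 295 CPM. Xcl1 was at 610 and 545 CPM in this split, with overlapping intervals. With and without a UMI of the γ chain segment Trgv2, Ikzf2 was at 1488 and 974 CPM and Cd7 at 902 and 339 CPM. Which of these splits the differences follow was not tested.

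RNA of a γ chain segment was frequent in these cells. Trgv2 was detected in 39 of 115 Ly49 CD8 T cells (33.9%, 25.3 to 43.3) and in 81 of 870 Ly49-lacking cells (9.31%, 7.46 to 11.4), or in 17.5 and 5.69% after thinning. By library the share was 61.9% (13 of 21 untreated cells), 45.5% (10 of 22, STING agonist), 13.6% (6 of 44, LTβR agonist) and 35.7% (10 of 28, combination), and the LTβR agonist library was lowest. No B cell among 671 and 2 of 1132 NK-like cells held a Trgv2 UMI. Of the 39 cells 37 also held a Trbv segment. Trdc, the δ constant gene needed for a γδ receptor, was seen in 3 of 115 Ly49 CD8 T cells and 17 of 870 Ly49-lacking cells, whereas Tcrg-C2, a γ constant gene, was seen in 36 and 65. The 4 γδ markers Trdc, Tcrg-C1, Tcrg-C2 and Tcrg-C4 summed to 173, 93.9, 135 and 90.7 CPM in Ly49 CD8 T cells and to 36.6 to 65.6 CPM in Ly49-lacking cells. At least 2 of them were detected in 22 of 115 and 19 of 870 cells.

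The share of Ly49 CD8 T cells was set side by side over the treatments. Among CD8 T cells it was 2.00% in untreated tumors (21 of 1050, 1.24 to 3.04), 3.69% with STING agonist (22 of 597, 2.32 to 5.53), 4.8% with LTβR agonist (44 of 917, 3.51 to 6.39) and 2.57% with combination therapy (28 of 1091, 1.71 to 3.69). The LTβR agonist share was 2.40 times the untreated share, with limits of 1.15 to 5.14 taken from opposite ends of the 2 intervals, which is wider than a 95% interval. With STING agonist the ratio was 1.84 (0.764 to 4.45) and with combination therapy 1.28 (0.563 to 2.97). Thus the intervals of untreated and LTβR agonist tumors did not overlap, and all others overlapped with untreated.

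The order of the libraries was the same among all filtered cells and changed inside the granzyme and inhibitory receptor limits. Among filtered cells the shares were 0.31, 0.587, 0.616 and 0.525% in untreated, STING agonist, LTβR agonist and combination tumors, and relative to untreated tumors they stood at 1.90 (0.779 to 4.63) with STING agonist, 1.99 (0.947 to 4.31) with LTβR agonist and 1.70 (0.738 to 3.95) with both agents. Inside the limits the shares were 9.13, 16.5, 13.9 and 8.14%, with ratios of 1.81, 1.53 and 0.891. The combination share lay above the untreated share with the first 2 denominators and below it with the last. After thinning to 2000 UMIs, 9, 5, 11 and 9 cells passed, or 0.987, 0.96, 1.42 and 0.939% of CD8 T cells, and the ratio to untreated was 0.972 with STING agonist and 1.43 with LTβR agonist. The part of depth in these shares was not tested.

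**Figure D4:**
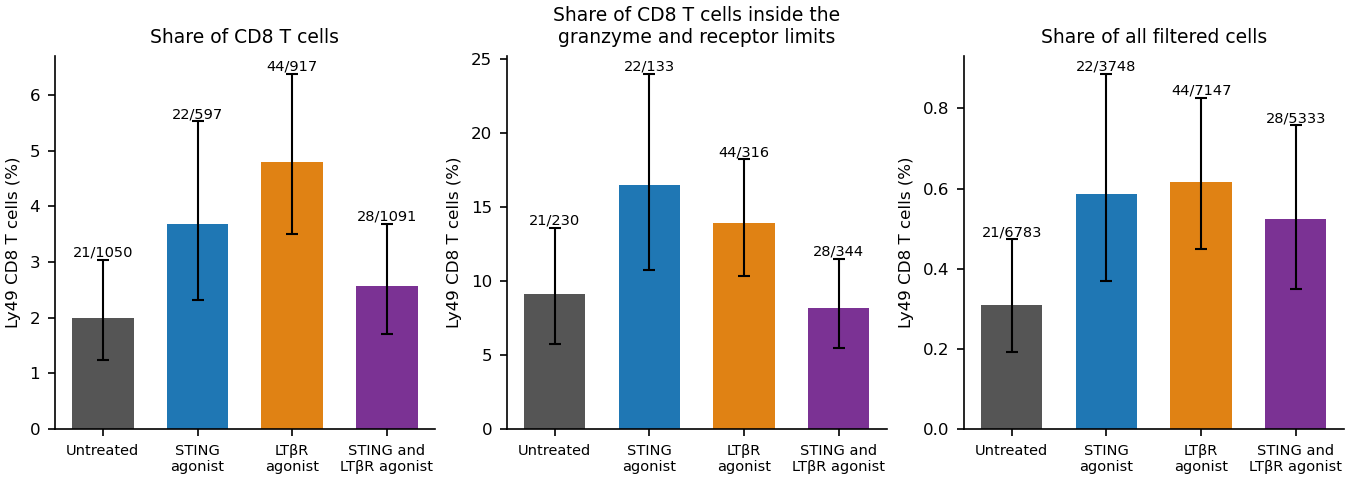
Share of Ly49 CD8 T cells (%) in each library among CD8 T cells, among filtered cells and among CD8 T cells inside the granzyme and inhibitory receptor limits, with exact 95% binomial intervals as bars. LTβR agonist is highest among CD8 T cells (4.8%) and STING agonist inside the limits (16.5%).

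Within the Ly49 CD8 T cells, each agonist library was compared with the untreated library over genes with a mean of at least 200 CPM, calling ratios of at least 2-fold. The sums rest on 21 to 44 cells a library. With STING agonist 3 of 623 genes (0.482%) were higher and 9 (1.44%) lower, with LTβR agonist 3 of 632 (0.475%) were higher and 5 (0.791%) lower, and with combination therapy 8 of 618 (1.29%) were higher and 14 (2.27%) lower. These 3 comparisons share the untreated cells.

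Xcl1 was the gene called higher with both single agonists, with log2 ratios of 1.56 with STING agonist and 1.30 with LTβR agonist. When cells with 1 receptor UMI were included, the ratios were 1.18 and 0.84, and Xcl1 was no longer called with LTβR agonist. Its level was 266 CPM (195 to 355) in untreated tumors, 834 (707 to 979) with STING agonist, 689 (603 to 783) with LTβR agonist and 449 (363 to 549) with combination therapy. Untreated was lowest and its interval did not overlap with the others. Xcl1 was detected in 10 of 21, 19 of 22, 29 of 44 and 19 of 28 cells. In each library 1 cell held 26.6 to 47.8% of the Xcl1 UMIs, and without that cell the levels were 154, 593, 475 and 345 CPM. Ly49-lacking cells showed another order, at 129, 116, 49.8 and 57.5 CPM.

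With STING agonist, Cd69, an early activation and retention molecule, was at 437 CPM against 104 in untreated tumors, and Traf1, an adaptor of TNF receptors, at 354 against 121 CPM. Cd69 was detected in 11 of 22 STING agonist and 12 of 21 untreated cells, and its level without the cell with most UMIs was 276 CPM. Traf1 was detected in 18 of 22 and 11 of 21 cells. With LTβR agonist, the splicing factor gene Sf3b1 was at 346 against 150 CPM and the calcium-binding protein gene S100a6 at 1102 against 532. Sf3b1 was detected in 35 of 44 LTβR agonist and 16 of 21 untreated cells, and S100a6 in 25 of 44 and 11 of 21. A single LTβR agonist cell held 31.6% of the S100a6 UMIs there. Neither gene was called with 50 CPM added or when cells with 1 receptor UMI were included. Klf2, which maintains T cell recirculation, was at 485, 608, 179 and 563 CPM and was lowest with LTβR agonist, where 25 of 44 cells held a UMI against 18 of 21 untreated cells.

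Genes of dividing cells were among those called lower. Stmn1, a regulator of microtubules in dividing cells, was at 514 CPM in untreated tumors and at 66.3, 117 and 9.55 CPM with STING agonist, LTβR agonist and combination therapy. The tubulin gene Tuba1b was at 393, 138, 152 and 81.2 CPM, Tubb5 at 728, 315, 308 and 339, and the chromatin protein gene Hmgb2 at 849, 227, 739 and 253. Of the UMIs of 8 cell cycle genes, which include Stmn1 but not the other 3, in untreated Ly49 CD8 T cells 94.1% lay in 3 of the 21 cells. Without cells in which at least 3 of the 8 genes were detected (18, 21, 41 and 27 cells left), Stmn1 was at 15.9, 5.91, 10.1 and 5.03 CPM, and Tuba1b was higher with all agonists at 31.8, 106, 67.3 and 75.4 CPM. Tubb5 was then at 167, 278, 192 and 342 CPM, and Hmgb2 stayed lower with all agonists at 358, 183, 330 and 256. Hmgb2 had been detected in 18 of 21 untreated cells, with 28.6% of its UMIs in 1 cell. Xcl1 kept its direction without them, at 191, 858, 780 and 392 CPM.

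Other genes called lower with STING agonist were Gm26917 and Gm15564, at 304 against 855 and 216 against 607 CPM. For each gene 1 untreated cell held a large part of the untreated UMIs, 34.5% for Gm26917 and 61.9% for Gm15564. With combination therapy, Gzmb was at 81.2 against 335 CPM, and Kcnq5, a potassium channel gene, at 110 against 352. A single untreated cell held 67.2% of the untreated Gzmb UMIs, and without it Gzmb was at 122 CPM there. Gzmb was at 27.6 and 141 CPM in the STING and LTβR agonist libraries. Without the cell with most Gzmb UMIs in each library the levels were 122, 17.7, 81.3 and 49.2 CPM.

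The 5 genes with the highest ratios under combination therapy were Cd74, Cxcl2, Lyz2, H2-Ab1 and H2-Aa, which act in MHC class II presentation or are typical of myeloid cells. Cd74 was at 46.2, 60.8, 255 and 1705 CPM in the 4 libraries and Lyz2 at 5.78, 33.2, 161 and 473. In the combination library 1 cell held 93.3 to 97.1% of the UMIs of each of these 5 genes. That cell had 17552 UMIs, 5 detected macrophage markers, a Scrublet score of 0.285 and 3 UMIs of T cell receptor constant genes. Without cells bearing 2 or more markers of another class, 25 of 28 combination cells remained, and Cd74 was at 54.7 against 25.6 CPM and H2-Aa at 21.9 against 38.5. The Cd74, Cxcl2, Lyz2 and H2 values of this library therefore rest mostly on this cell. Without it alone, Cd74 was at 125, Lyz2 at 20.8 and Cxcl2 at 15.6 CPM in the combination library. All untreated cells had 46.2, 5.78 and 0 CPM of these genes. Cd74 was also called higher from the mean of CPM per cell.

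**Figure D5:**
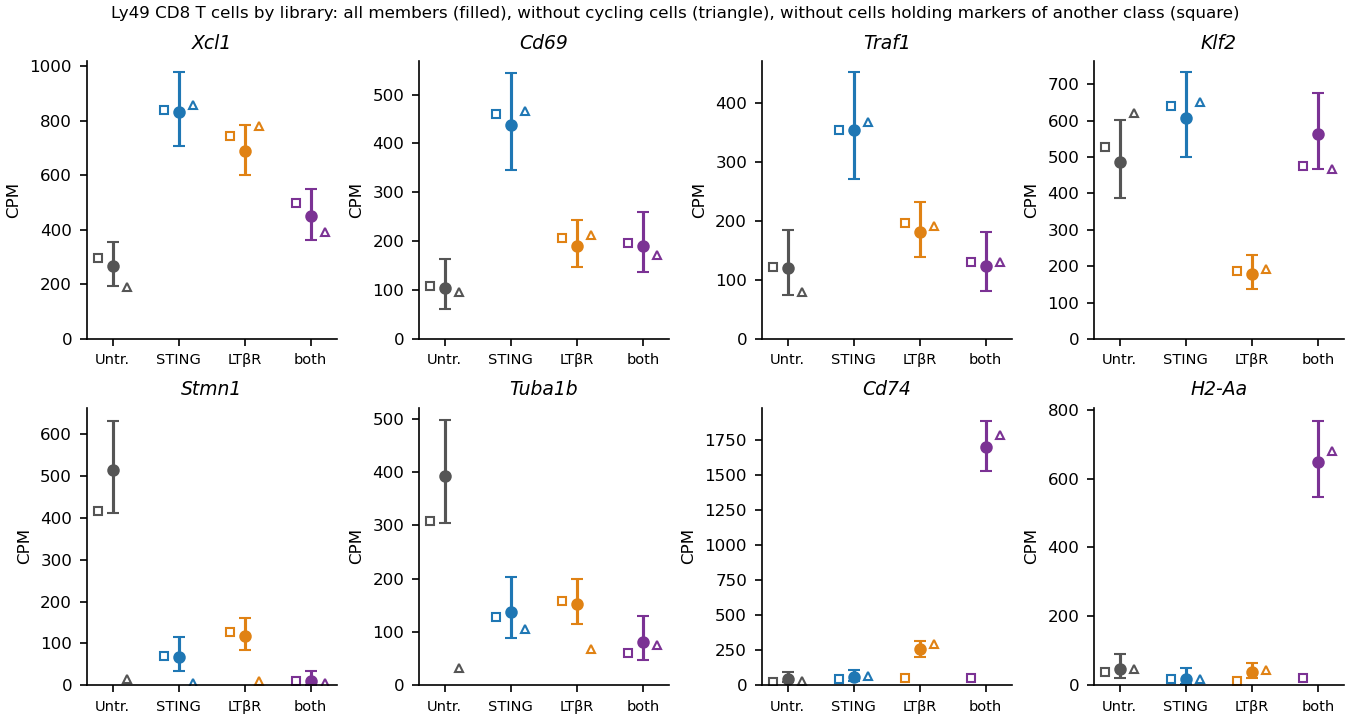
Levels (CPM) of genes in Ly49 CD8 T cells by library for all cells (filled, with exact Poisson 95% intervals as bars), without cycling cells (triangles) and without cells bearing markers of another class (squares). Xcl1 stays lowest in untreated tumors in all 3 sets, whereas Stmn1 is at most at 15.9 CPM without cycling cells and Cd74 at most at 54.7 CPM without cells of another class.

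RNA of the targets of both agonists was sparse in these cells. Tmem173, which encodes STING, was at 40.4, 44.2, 46.9 and 23.9 CPM, and Ltbr, the receptor of the LTβR agonist, was at 0, 0, 5.86 and 9.55 CPM. Ltb, the lymphotoxin β ligand subunit, was at 335, 376, 325 and 315 CPM. Of 3 compared interferon-stimulated genes none was called in any treatment, with median log2 ratios of -0.41, 0.00 and -0.05. The summed level of the interferon list was 2820 CPM (2575 to 3081) in untreated tumors and 2205 (1994 to 2432), 2427 (2264 to 2598) and 2301 CPM (2101 to 2516) with STING agonist, LTβR agonist and combination therapy. The STING agonist and combination intervals lay below the untreated interval, and that of LTβR agonist overlapped with it. Of 3, 5 and 4 compared cytotoxic genes, 0, 1 and 1 were called lower, in both cases Gzmb (1.44, 0.791 and 2.27% of all genes). With STING agonist Gzmb did not reach the mean of 200 CPM and was not compared. It stood there at 27.6 against 335 CPM in untreated tumors, or at 17.7 against 122 without the cell with most Gzmb UMIs in each library. Ikzf2 was lowest with combination therapy and was not called, and the receptor genes Klra1, Klra6 and Klra7 were not compared because they chose the cells.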

How the data were processed

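Single-cell RNA sequencing was performed on 4 libraries of sorted CD45+ cells, 1 per treatment group, with 5′ chemistry. The authors deposited raw UMI counts per gene and barcode in 1 matrix for all libraries; per the labels, the barcode suffix gives the library. Counts came from Cell Ranger 7.1.0 and mm10 (submitters' processing notes). The 4 libraries held 7191, 3955, 7824 and 5869 barcodes (untreated, STING agonist, LTβR agonist, combination) and between 32529174 and 60770280 UMIs. The limits of 300 to 5000 genes and at most 6% mitochondrial UMIs follow the study's methods and left 6783, 3748, 7147 and 5333 cells. The median was 5750 to 7094 UMIs per filtered cell in the 4 libraries.

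Cells were chosen by UMI counts as described, and no sample or column was left unused. The cells, their markers and the gene lists were chosen with earlier results of these data known. UMIs were summed per library and cell group, divided by the group's total to give CPM, and ratios were taken on the log2 scale with 25 CPM added, without the selecting genes and V(D)J segments. Intervals were exact (Clopper-Pearson for shares, Poisson for CPM, 95%). Each cell was thinned once to 2000 UMIs with a fixed seed, leaving out shallower cells. Doublets were kept; Scrublet scores per library (expected rate 0.05) served as an alternative. Genes were named by rule: the given markers and selecting genes, the members of fixed lists, the 15 highest and 10 lowest called genes (all called ones where fewer), the 5 highest and 5 lowest per treatment, and the 5 commonest Trbv and Trav segments. Ahr, Trgv2 and the single cells described were chosen after their values were seen. Gene positions and promoter windows were taken from GENCODE and RefSeq annotation of GRCm38. The ratio step was tested on simulated data. Python 3.11.15, numpy 2.4.6, scipy 1.17.1, pandas 2.3.3, scanpy 1.11.5, Biopython 1.88 and matplotlib 3.10.9 were used.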

Additional observations from a re-analysis of the deposited data

Results flagged for a closer look

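Results are given here where the LTβR agonist went in opposite directions on its own and on top of the STING agonist. Each side rests on 1 library, so the differences were not tested. The share of Ly49 CD8 T cells among CD8 T cells was 2.40 times the untreated share with LTβR agonist alone and 0.696 times the STING agonist share with both agonists. Among filtered cells the ratios were 1.99 and 0.894. The limits included equality for both ratios on top of STING agonist (0.31 to 1.59 and 0.393 to 2.06) and for LTβR agonist alone among filtered cells (0.947 to 4.31), and did not for LTβR agonist alone among CD8 T cells (1.15 to 5.14). After thinning to 2000 UMIs the opposite directions were not kept among filtered cells. The shares there were 0.148% (untreated), 0.149% (STING agonist), 0.178% (LTβR agonist) and 0.189% (combination). Among thinned CD8 T cells they were 0.987, 0.96, 1.42 and 0.939% in the same order. For Gzmb the log2 ratio was -1.12 with LTβR agonist alone and 1.01 with both agonists over STING agonist, and 67.2% of the untreated Gzmb UMIs lay in 1 cell. Without the cell with most Gzmb UMIs in each library, Gzmb was at 122 CPM in untreated and 81.3 CPM in LTβR agonist cells. The STING agonist level of Gzmb rests on 5 UMIs in 3 of 22 cells.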

How the results depend on the processing

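Of 94 alternative values for shares and counts of genes 77 stayed close to the reported value and 17 moved, and of 418 for single genes 323 stayed, 89 lost the 2-fold call and 6 reversed. The alternatives that left out cells with markers of another class for gene ratios, cycling cells, and cells without a Cd8b1 UMI were chosen after seeing the data. Genes higher than in Ly49-lacking cells numbered 3 with 50 CPM added, 9 with no filter on low genes, 3 without cells bearing NK markers and 3 with Cd8b1-positive cells only, and 5 to 7 with 1 library left out. Genes lower numbered 13 with 50 CPM added, 45 without high Scrublet scores and 45 with at least 4 receptor UMIs, and 24 to 55 with 1 library left out (37 without LTβR agonist, 55 without the combination). With no filter on low genes the treatment comparisons called 550, 259 and 606 genes, which adds genes under a mean of 200 CPM. For combination therapy 6 genes were called from the mean of CPM per cell and 14 without high Scrublet scores, with cells of at least 1 receptor UMI, or without cells bearing markers of another class; for LTβR agonist 5 were called with at least 1 receptor UMI. Reversed were H2-Aa with combination therapy, to -0.64 without high Scrublet scores and -0.44 without cells of another class, and, without cycling cells, Tuba1b to 1.21, 0.70 and 0.82 with STING agonist, LTβR agonist and combination and Tubb5 to 0.17 with LTβR agonist. The causes of these changes were not tested. No paired analysis was possible because each group has 1 library. Shares of 21 to 44 cells a library limit any ratio to the wide intervals given.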
